A study of Homo sapiens with 6 samples.

Results

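Aminoacyl-tRNA synthetases were followed in PC9, a line of human non-small cell lung carcinoma, and in the drug-tolerant persister cells (PSPC9) derived from it. The members were the 38 rows of the gene count table, of 36459 rows in all, whose symbols are on a fixed list of these enzymes and of 2 scaffold proteins, AIMP1 and AIMP2. Symbols ending in 2, except AIMP2, made up 16 mitochondrial members, and the other 22 were counted as cytosolic. GARS and KARS, which each encode both the cytosolic and the mitochondrial enzyme, were among the latter. All 38 passed the filter on low counts.

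Bulk poly-A RNA-seq was performed on 3 libraries of parental PC9 cells, cultured without drug, and on 3 libraries of PSPC9 cells kept for 6 days with 15 µM of erlotinib, which blocks the kinase activity of EGFR. The parental libraries came from separate cultures. The persister libraries were made from 9 separately treated cultures pooled into 3. The SD of PSPC9 is therefore a spread between pools, and that of PC9 a spread between separate cultures. Both groups are a single cell line, and the drug's presence and the persister state cannot be told apart, because no library of drug-free persisters or briefly treated parental cells was compared.

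Each aminoacyl-tRNA synthetase joins one amino acid to its matching tRNAs, the step that sets the meaning of a codon. Human cells have separate nuclear genes for most of the cytosolic and mitochondrial enzymes, and the enzymes fall into class I and class II by the fold of their catalytic domain. Several cytosolic enzymes are held in a multisynthetase complex by scaffold proteins, whereas the rest act outside it. When uncharged tRNA accumulates, the kinase GCN2 (EIF2AK4) phosphorylates eIF2α, which favours translation of the transcription factor ATF4. Genes of amino acid uptake, amino acid synthesis and tRNA charging are among the known targets of ATF4.

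Each library held between 29476725 and 34893782 estimated counts. Replicate libraries were further apart than counting error allows, with a chi-square of 3.53 to 21.1 per degree of freedom, so the spread between libraries set the precision. All 5 epithelial markers examined were expressed, with EPCAM at 388 ± 13.4 CPM (counts scaled to a common library total; SD, n = 3) in PC9 and 341 ± 3.70 in PSPC9. CDH1 rose (log2 fold change 0.60), and EPCAM (-0.18), KRT8 (-0.80), KRT18 (-0.92) and KRT19 (-1.03) fell. Of 8 markers of immune, endothelial and fibroblast cells, CD3E had no count in any library and PTPRC stayed at or under 0.356 CPM. Their summed level lay between 89.6 and 92.0 CPM in PC9 and between 47.3 and 53.7 CPM in PSPC9. CD68 (74.8 ± 0.91 to 21.1 ± 1.62 CPM) and PECAM1 fell, and COL1A1 (10.2 ± 0.34 to 28.3 ± 1.79 CPM) and PDGFRB rose. Their part in the results was not tested.

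The promoter sequences of the cytosolic enzymes are shown first, because a short word recurred in those of 7 members that rose. The motif TGATGNAA, the core of the C/EBP-ATF response element to which ATF4 binds, was searched on both strands, where it reads TTNCATCA on the other strand. RefSeq promoter windows of 300 bases (250 before to 50 after a start site, GRCh38.p14) were found for 32 of the 38 members. DARS, LARS, VARS, YARS, AARS2 and VARS2 were not in the table. The word occurred in 7 of the 14 cytosolic members that rose and have a window. It occurred in 0 of the 4 other cytosolic members with a window (QARS, KARS, RARS and AIMP1) and in 1 of the 14 mitochondrial members with a window (YARS2). In comparison, 4.46% of all 27305 gene symbols with a window hold it, and 3.62% of all 35116 windows. Stretches around each match in the 7 cytosolic members follow, on the strand of the gene and cut off shortly after the start site, with the matched word in capitals.
AARS: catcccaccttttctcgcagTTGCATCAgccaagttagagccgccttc
CARS: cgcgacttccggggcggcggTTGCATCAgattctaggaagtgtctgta
GARS: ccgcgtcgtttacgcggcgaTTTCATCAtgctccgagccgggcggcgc
IARS: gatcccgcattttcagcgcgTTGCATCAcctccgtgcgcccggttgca
MARS: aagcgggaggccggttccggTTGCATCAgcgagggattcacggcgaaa
NARS: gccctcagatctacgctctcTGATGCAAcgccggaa
TARS: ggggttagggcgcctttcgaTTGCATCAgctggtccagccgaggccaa
Read on one strand, 6 of the 7 words were identical (TTGCATCA), NARS carrying it in the reverse orientation, and GARS had TTTCATCA. The first base of the word lay 2 bases before the start site in CARS (chr11:3057398-3057445, minus strand) and 4 before it in MARS (chr12:57488044-57488091, plus strand). It lay 13 before it in IARS (chr9:92293683-92293730, minus strand) and 33 before it in GARS (chr7:30594825-30594872, plus strand). In TARS (chr5:33440947-33440994, plus strand) it began 2 bases after the start site, and in NARS (chr18:57621807-57621842, minus strand) 14 after it. In AARS it lay furthest away, at 187 bases before the start site of its RefSeq window (chr16:70289666-70289713, minus strand). GENCODE 44 begins the AARS gene at base 70289707, within that stretch, so this distance depends on the annotation used. CARS, GARS, and some other members have more than one window, and a member was counted when any window held the word. A match says only that the letters are there, and WARS and AIMP2, which rose among the most, had no match.

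Cytosolic members were mostly higher in PSPC9. Of the 22, 17 rose and 2 fell (QARS, DARS) in edgeR's quasi-likelihood test at an adjusted p under 0.01, and 3 (KARS, RARS, AIMP1) did not pass. Over all 14626 genes tested, 28.7% rose and 28.1% fell. Their median log2 fold change (PSPC9 over PC9) was 0.35, beside -0.01 over all genes tested. In 19 of the 22 the PC9 and PSPC9 libraries did not overlap, as in 71.3% of all genes. The 20 cytosolic enzymes together took 4052 ± 36.1 CPM in PC9 and 5667 ± 40.9 CPM in PSPC9 (SD, n = 3), a ratio of 1.40. CPM is a share of each library's RNA, so a change in RNA per cell cannot be told apart from a change in composition.

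**Figure D1:**
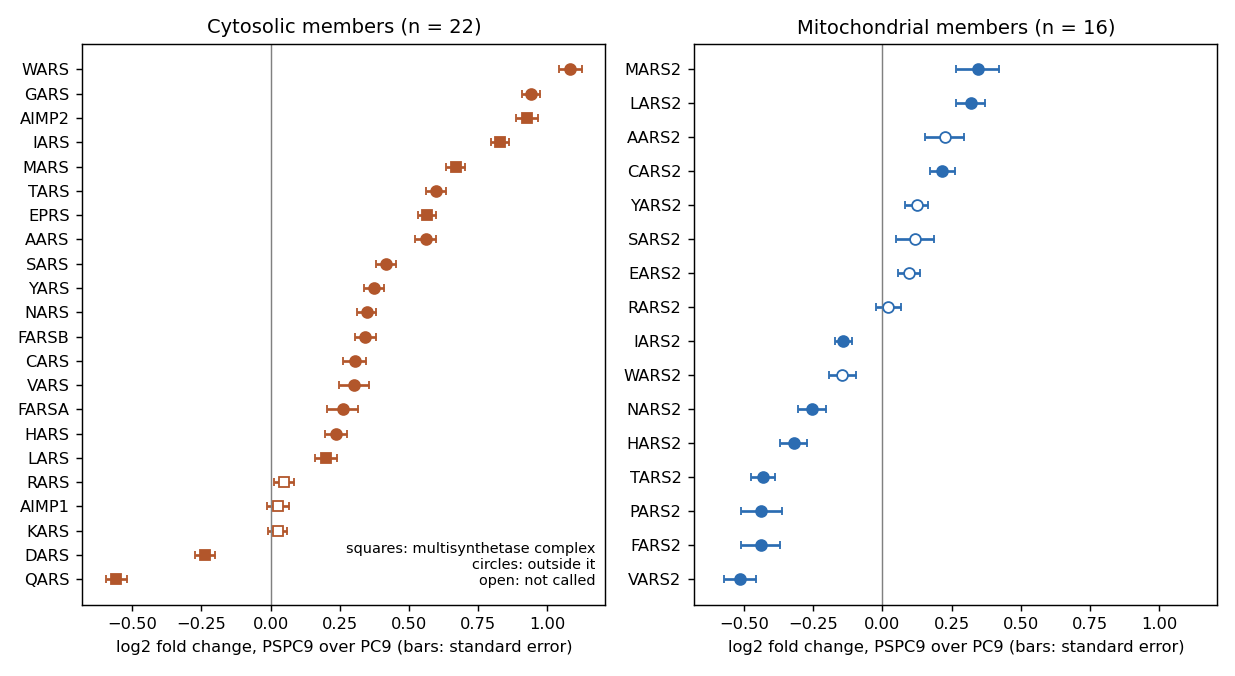
Log2 fold change of each member, PSPC9 over PC9, with its standard error (3 libraries per group), cytosolic members left and mitochondrial members right. Filled symbols passed the test, open ones did not, and squares mark the multisynthetase complex. Cytosolic members run from -0.56 (QARS) to 1.09 (WARS), mitochondrial members from -0.52 (VARS2) to 0.35 (MARS2).

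WARS, which charges tryptophan and is also known as an interferon-inducible gene, had the largest increase. Its levels were 48.7, 46.9 and 47.7 CPM in PC9 and 98.3, 103.6 and 102.0 CPM in PSPC9. Every PSPC9 library was about as far above PC9 as the others, a log2 fold change of 1.09 ± 0.04 (SE, adjusted p = 2.74e-09). GARS, the glycyl-tRNA synthetase of both compartments, went from 301, 298 and 294 CPM to 570, 584 and 562 CPM. That was a log2 fold change of 0.94 ± 0.03 (adjusted p = 1.62e-09), with no overlap of the groups.

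IARS, the isoleucine enzyme, rose from 428, 412 and 415 CPM to 747, 744 and 739 CPM. Its log2 fold change was 0.83 ± 0.03 (adjusted p = 3.91e-09), and the PSPC9 libraries lay close together. MARS, the methionine enzyme, which also charges the initiator tRNA, rose from 170, 176 and 170.5 CPM to 268, 278 and 274 CPM (log2 fold change 0.67 ± 0.03, adjusted p = 3.40e-08). TARS, the threonine enzyme, rose from 643, 604 and 625 CPM to 928, 967 and 938 CPM (0.60 ± 0.04, adjusted p = 1.11e-07). For each of the 3 genes the lowest PSPC9 library was above the highest PC9 library. MARS shares 355 of its 7028 exonic bases with DDIT3 on the opposite strand, and DDIT3 itself rose. The strand setting of the counting is not given in the sources used here, so reads there cannot be assigned to one gene with certainty. DDIT3 was at 5.35 ± 0.45 CPM in PC9 and 13.5 ± 0.20 CPM in PSPC9, and its part in the values of MARS was not tested.

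EPRS is a single protein that charges both glutamate and proline. It was at 394, 380 and 385 CPM in PC9 and at 583, 567 and 566 CPM in PSPC9, a log2 fold change of 0.57 ± 0.03 (adjusted p = 8.67e-08). AARS, the alanine enzyme, went from 248, 266 and 246 CPM to 372, 376 and 373 CPM (0.56 ± 0.04, adjusted p = 2.91e-07). These were the last of the 8 largest increases, and both groups were tight and separate.

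WARS shares 287 of its 6356 exonic bases with WDR25 on the opposite strand, a gene that did not pass (0.32, adjusted p = 0.0841). The remaining 9 cytosolic members that rose did so by less, with log2 fold changes from 0.42 (SARS) down to 0.20 (LARS). Between them lay YARS (0.37), NARS (0.35), FARSB (0.34), CARS (0.30), VARS (0.30), FARSA (0.26) and HARS (0.24). YARS shares 396 of its 9775 exonic bases with S100PBP on the opposite strand, which fell (-0.28). When gene counts were summed from annotated transcripts, the call was lost for CARS (0.44, adjusted p = 0.213), HARS (-0.70, adjusted p = 0.257) and LARS (0.15, adjusted p = 0.0125). Annotated transcripts held 1.08% of the counts of CARS, 35.4% of those of HARS and 93.7% of those of LARS. FARSA and FARSB encode the 2 kinds of subunit of the phenylalanine enzyme, and both rose. FARSB went from 148 ± 4.36 to 188 ± 3.49 CPM. FARSA went from 57.0 ± 4.63 to 68.3 ± 1.69 CPM, and its call was lost without PC9 replicate 3 (adjusted p = 0.0122) or PSPC9 replicate 2 (adjusted p = 0.0103). LARS, the leucine enzyme, which is also known as a leucine sensor of the mTORC1 pathway, had 284, 262 and 274 CPM in PC9 and 319, 316 and 307 CPM in PSPC9 (adjusted p = 0.000840).

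QARS, the glutamine enzyme, was the cytosolic member that fell most. Its levels were 196, 208 and 202 CPM in PC9 and 135, 136 and 140 CPM in PSPC9. The highest PSPC9 library was well under the lowest PC9 library, and the log2 fold change was -0.56 ± 0.04 (adjusted p = 2.89e-07). DARS, the aspartate enzyme, fell from 107, 105 and 107 CPM to 90.7, 90.8 and 89.6 CPM (-0.24 ± 0.04, adjusted p = 0.000143). Its groups also did not overlap. KARS, the lysine enzyme of both compartments, was at 174, 179 and 178 CPM in PC9 and 178, 180 and 182 CPM in PSPC9 (log2 fold change 0.03 ± 0.03, adjusted p = 0.521). RARS, the arginine enzyme, was at 128, 120 and 124 CPM and at 127, 128 and 129 CPM (0.05 ± 0.04, adjusted p = 0.261). In both genes the groups overlapped.

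The members that fell or did not pass were all parts of the multisynthetase complex. Of its 10 members on the list, 5 rose (IARS, MARS, EPRS, LARS, AIMP2), 2 fell and 3 did not pass, with a median log2 fold change of 0.13. That was 50% rising and 20% falling, beside 28.7% and 28.1% of all genes, so the falling share was not above that over all genes. All 12 cytosolic members outside the complex rose, with a median of 0.36. This difference between the groups was not tested. The 2 scaffold proteins differed from each other. AIMP2 rose from 44.7, 43.7 and 43.3 CPM to 82.9, 84.95 and 83.0 CPM (0.93 ± 0.04, adjusted p = 6.99e-09). AIMP1 stayed at 55.8, 53.9 and 53.5 CPM against 55.4, 56.0 and 54.8 CPM, with overlapping groups (0.03 ± 0.04, adjusted p = 0.576), and shares 476 of its 9258 exonic bases with TBCK on the opposite strand, which fell (-0.23). AIMP2 shares 532 of its 1828 exonic bases with EIF2AK1 on the opposite strand. EIF2AK1, the haem-regulated eIF2α kinase, was at 390 ± 10.8 CPM in PC9 and 390 ± 9.78 CPM in PSPC9 (log2 fold change -0.002, adjusted p = 0.974). The catalytic class did not separate the cytosolic members: 7 of 9 class I genes and 8 of 10 class II genes rose, and 1 of each fell.

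**Figure D2:**
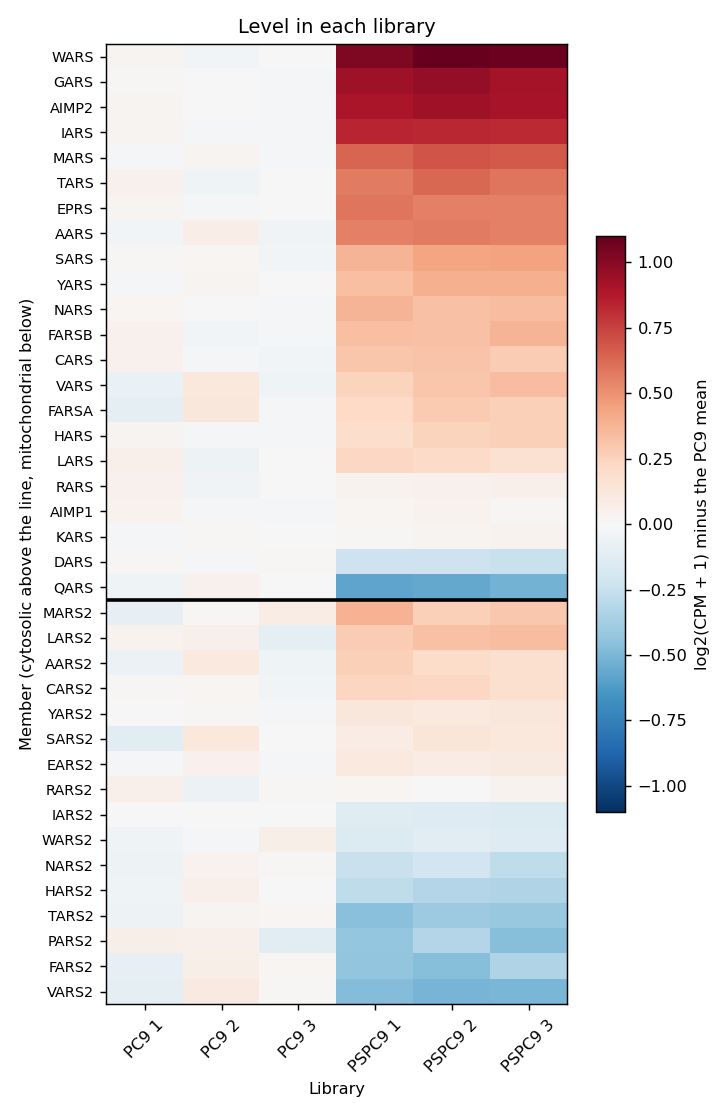
Level of every member in each of the 6 libraries, as log2(CPM + 1) minus the mean of the 3 PC9 libraries (red above it, blue below it), cytosolic members above the black line and mitochondrial members below it. The 3 PSPC9 columns resemble each other row by row, and the red rows are mostly above the line.

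Mitochondrial members moved less and more often down. Of the 16, 3 rose (MARS2, LARS2, CARS2), 7 fell (VARS2, FARS2, PARS2, TARS2, HARS2, NARS2, IARS2) and 6 did not pass, with a median log2 fold change of -0.06. The falling share was 43.8% and the rising share 18.8%, beside the 28.1% and 28.7% over all genes. Their summed level was 759 ± 12.0 CPM in PC9 and 710 ± 1.60 CPM in PSPC9. None changed by more than 1.5-fold, whereas 6 cytosolic members rose by more than that. Beside them, 78 mitochondrial ribosomal protein genes had a median of -0.06. Of these, 8 rose (10.3%) and 22 fell (28.2%), the falling share being near that over all genes.

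The largest decrease was in VARS2, the valine enzyme. It was at 36.9, 42.8 and 40.3 CPM in PC9 and at 28.4, 27.8 and 27.8 CPM in PSPC9, a log2 fold change of -0.52 ± 0.06 (adjusted p = 1.62e-05). In the annotation, 4073 of its 6467 exonic bases also belong to a long non-coding RNA on the same strand, so its counts are uncertain. FARS2, the phenylalanine enzyme, fell from 14.3, 16.0 and 15.5 CPM to 11.1, 10.8 and 11.9 CPM (-0.44 ± 0.07, adjusted p = 0.000235). PARS2, the proline enzyme, fell from 17.7, 17.6 and 15.4 CPM to 12.3, 13.3 and 11.9 CPM (-0.44 ± 0.08, adjusted p = 0.000372). TARS2, the threonine enzyme, completed the 4 largest decreases. It fell from 56.0, 59.6 and 59.3 CPM to 42.2, 43.97 and 43.3 CPM (-0.43 ± 0.04, adjusted p = 6.90e-06). No group overlapped in these 4 genes. HARS2 (-0.32) and NARS2 (-0.26) fell by less. IARS2, the isoleucine enzyme and the most abundant mitochondrial member, fell from 284 ± 1.42 to 258 ± 1.12 CPM (-0.14 ± 0.03, adjusted p = 0.00226). Its call was lost without PC9 replicate 3, PSPC9 replicate 2 or PSPC9 replicate 3 (adjusted p = 0.0142, 0.0128 and 0.0144).

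MARS2, the methionine enzyme, rose from 8.46, 9.14 and 9.65 CPM to 12.2, 11.1 and 11.4 CPM (0.35 ± 0.08, adjusted p = 0.00231). It was the member with the fewest counts, and its call was lost without PSPC9 replicate 1 (adjusted p = 0.0113). LARS2, the leucine enzyme, rose from 38.9, 39.5 and 35.4 CPM to 46.1, 47.6 and 48.3 CPM (0.32 ± 0.05, adjusted p = 0.000241). CARS2, the cysteine enzyme, rose from 33.6, 33.8 and 32.7 CPM to 39.5, 39.1 and 37.7 CPM (0.22 ± 0.04, adjusted p = 0.00131), a call that was lost without PC9 replicate 3 (adjusted p = 0.0103). It shares 334 of its 10436 exonic bases with ING1 on the opposite strand, which fell (-0.47). All 3 groups were separate.

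AARS2, the alanine enzyme, was also among the 4 highest but did not pass. It had 11.3, 12.9 and 11.5 CPM in PC9 and 14.4, 13.8 and 13.5 CPM in PSPC9 (0.22 ± 0.07, adjusted p = 0.0167), and it passed without PC9 replicate 2 (adjusted p = 0.00405). YARS2, the tyrosine enzyme, was at 34.3, 34.5 and 34.0 CPM and at 37.4, 36.9 and 37.5 CPM (adjusted p = 0.0237). EARS2, the glutamate enzyme, was at 55.0, 57.7 and 55.1 CPM and at 60.3, 59.2 and 59.8 CPM (adjusted p = 0.0577). WARS2, the tryptophan enzyme, was at 28.3, 29.1 and 30.6 CPM and at 26.3, 26.8 and 26.4 CPM (adjusted p = 0.0224). In these 4 genes the groups did not overlap although the test was not passed. The groups were also separate in 71.3% of all genes. RARS2, the arginine enzyme, was at 50.9, 46.5 and 49.2 CPM against 49.5, 48.9 and 50.3 CPM (adjusted p = 0.702). SARS2, the serine enzyme, was at 16.0, 19.1 and 17.6 CPM against 18.6, 19.3 and 19.1 CPM (adjusted p = 0.154), and 1492 of its 3098 exonic bases also belong to another coding gene model on the same strand. In RARS2 and SARS2 the groups overlapped. By class, 5 of the 7 class II enzymes fell and 0 rose, whereas 3 of the 9 class I enzymes rose and 2 fell, a difference that was not tested. Over all genes tested, 28.7% rose and 28.1% fell.

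Cytosolic and mitochondrial enzymes of one amino acid were then compared within each library. There were 17 such pairs, counting EPRS with both EARS2 and PARS2 and FARS2 with both FARSA and FARSB. The log2 ratio of the cytosolic to the mitochondrial CPM was higher in every PSPC9 library than in any PC9 library in 15 pairs, and the median shift was 0.56. Of single genes, 71.3% were separate between the groups in either direction, and the share among other pairs of genes was not computed. In 8 pairs the cytosolic enzyme rose and the mitochondrial enzyme fell (EPRS/PARS2, both phenylalanine pairs, and the histidine, isoleucine, asparagine, threonine and valine pairs). In 3 pairs (cysteine, leucine, methionine) both rose. With 3 libraries against 3, an exact two-sided permutation test cannot give a p below 0.1 for any pair.

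**Figure D3:**
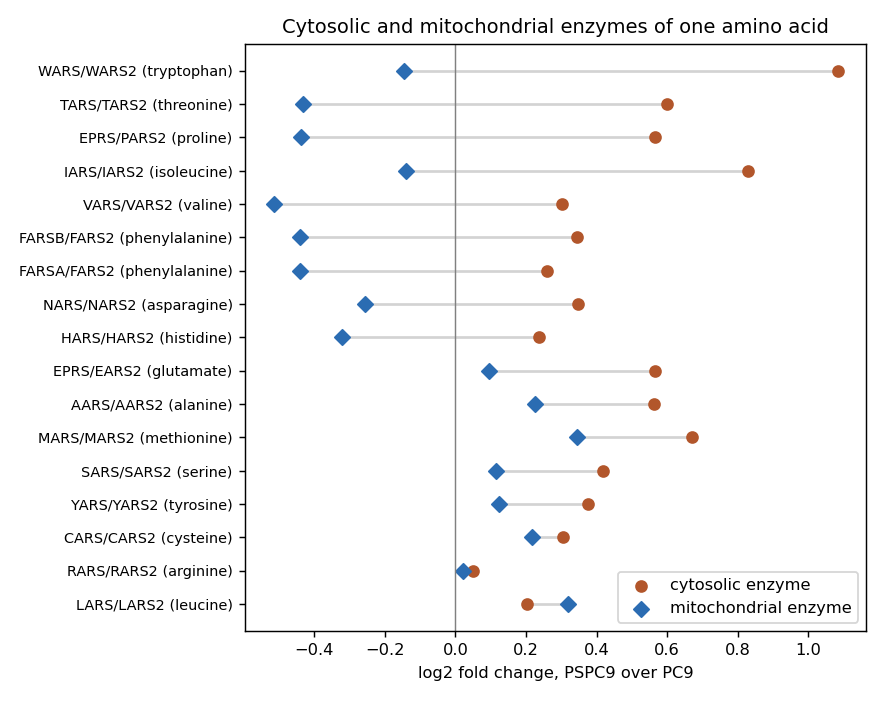
Log2 fold change (PSPC9 over PC9) of the cytosolic enzyme (circle) and the mitochondrial enzyme (diamond) of each of 17 pairs, ordered by the shift of their ratio. The cytosolic circle lies right of the mitochondrial diamond in 16 pairs, and the leucine pair is the exception.

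The tryptophan pair shifted most. The log2 ratio of WARS to WARS2 was 0.78, 0.69 and 0.64 in PC9 and 1.90, 1.95 and 1.95 in PSPC9, a shift of 1.23. The threonine pair followed, with a ratio of TARS to TARS2 of 3.52, 3.34 and 3.40 in PC9 and 4.46, 4.46 and 4.44 in PSPC9. For isoleucine the ratio was 0.60, 0.53 and 0.54 in PC9 and 1.53, 1.53 and 1.52 in PSPC9. In these pairs the shift was far larger than the spread within a group. The leucine pair did not shift in this way, with log2 ratios of 2.87, 2.73 and 2.95 in PC9 and 2.79, 2.73 and 2.67 in PSPC9. The arginine pair also overlapped, at 1.34 ± 0.02 in PC9 and 1.37 ± 0.02 in PSPC9.

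Neighbouring members on a chromosome could carry opposite calls. HARS and HARS2 are head-to-head neighbours on chromosome 5 whose annotated spans overlap by 108 bases, and HARS rose (63.8 ± 1.21 to 75.1 ± 1.90 CPM, log2 fold change 0.24) while HARS2 fell (34.9 ± 1.35 to 27.9 ± 0.61 CPM, -0.32). Summed from annotated transcripts, HARS was at -0.70 (adjusted p = 0.257), so the opposite calls did not hold there. HARS also shares 1090 of its 14155 exonic bases with WDR55 on the opposite strand (0.12, adjusted p = 0.0395). EPRS and IARS2 lie 47602 bases apart on opposite strands of chromosome 1, and EPRS rose while IARS2 fell.

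Levels per transcript length, as TPM (counts divided by transcript length and scaled to a common total), were compared for the 32 members for which at least 90% of the gene's counts were on annotated transcripts. CARS, HARS, VARS, HARS2, SARS2 and VARS2 were not compared. TARS was the highest in both conditions, at 546 ± 14.8 TPM in PC9 and 870 ± 11.9 TPM in PSPC9. GARS and SARS followed in PC9, at 233 ± 3.25 and 232 ± 5.38 TPM, and did not differ beyond their spread. QARS was in place 4 in PC9, at 217 ± 7.63 TPM, and in place 11 in PSPC9, at 161 ± 3.19 TPM. IARS was in place 6 in PC9, at 170 ± 0.32 TPM, and in place 4 in PSPC9, at 312 ± 8.26 TPM. The highest mitochondrial level was that of IARS2, at 154 ± 3.16 TPM in PC9 and 144 ± 4.29 TPM in PSPC9. The lowest was that of AARS2, at 4.72 ± 0.41 and 5.72 ± 0.33 TPM. The median level was 141 TPM in PC9 and 182 TPM in PSPC9 for 19 cytosolic members, and 22.1 and 20.8 TPM for 13 mitochondrial members. In the PC9 order, 16 of 31 neighbours overlapped.

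**Figure D4:**
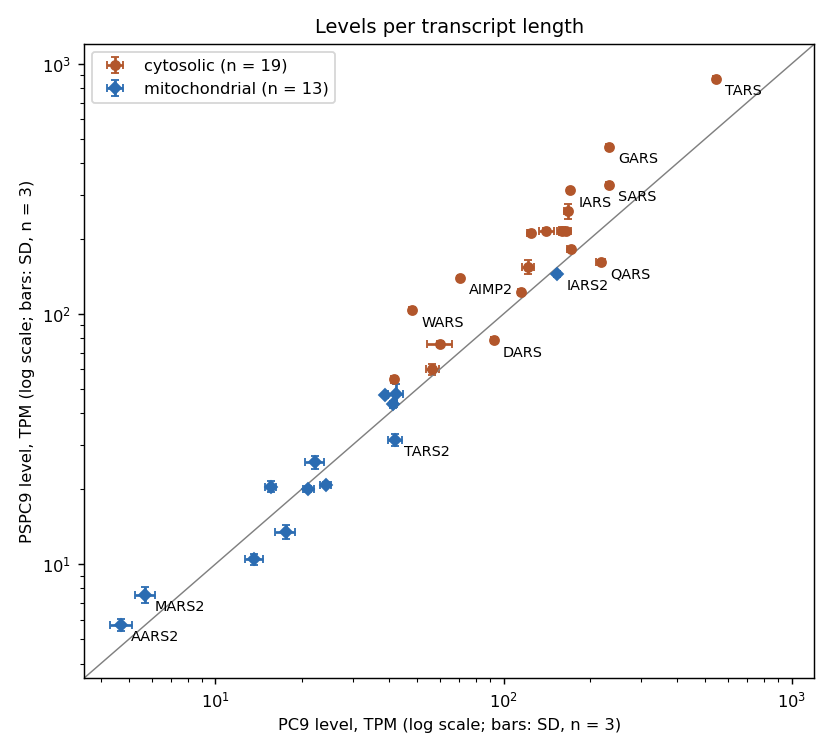
Mean level per transcript length (TPM, log scales) in PC9 and PSPC9 for 32 members, with SD over 3 libraries, circles cytosolic and diamonds mitochondrial. Points above the grey line of equal levels are higher in PSPC9: TARS lies at the top at 870 TPM in PSPC9, and QARS and DARS are the cytosolic points under the line.

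Transcripts were tested separately. Of 140 tested transcripts of these 32 members, 20 were called (17 higher, 3 lower), beside 7.8% of all transcripts tested. The count fell to between 7 and 12 when one library was left out, whichever library it was. The main protein-coding transcripts of GARS (GARS1-201), EPRS (EPRS1-201) and AIMP2 (AIMP2-201) were among those that rose, and QARS1-201 and IARS2-201 were among those that fell. IARS1-202 rose from 174 ± 24.8 to 379 ± 14.2 CPM and from 42.4 ± 6.37% to 52.9 ± 2.23% of the counts of IARS, although the change in its share was not called. For TARS, 4 transcripts rose together, among them the coding TARS1-204 (330.2 to 502.9 CPM) and 2 annotated as targets of nonsense-mediated decay, TARS1-209 (151.4 to 216.4 CPM) and TARS1-210 (104.2 to 150.1 CPM).

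Transcript usage, the division of a gene's counts among its transcripts, was not called in any of 27 members with diffSpliceDGE, beside 1.88% of all genes tested, and 2 members had an unadjusted p under 0.05. These were KARS (adjusted p = 0.0130) and DARS (adjusted p = 0.123). KARS1-203, annotated as a target of nonsense-mediated decay, had estimated counts of 11, 18 and 11 in PC9 and 0 in every PSPC9 library, a small share of the gene. Without PSPC9 replicate 3 the usage of DARS was called (adjusted p = 0.00226). The widest shift between abundant transcripts was in LARS. LARS1-201 went from 58.6 ± 3.06% to 46.0 ± 2.86% of its counts and LARS1-208 from 38.8 ± 2.38% to 49.1 ± 2.33%, with no overlap of the groups, and the usage test gave an adjusted p of 0.924. The division of reads among similar transcripts is itself an estimate whose error entered no test.

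Other genes of tRNA charging moved little, apart from 1. Of 12 accessory genes, 1 rose, 1 fell and 10 did not pass (28.7% and 28.1% of all genes rose and fell), with a median log2 fold change of 0.11. The gene that rose was XPOT, the export receptor that carries tRNA out of the nucleus, from 316, 293 and 303 CPM to 618, 611 and 586 CPM (0.99 ± 0.04, adjusted p = 4.07e-09). AARSD1, which edits wrongly charged alanine tRNA, fell (15.5 ± 0.90 to 12.8 ± 0.38 CPM, adjusted p = 0.00333). GATB, GATC and QRSL1 make glutaminyl-tRNA in mitochondria, which have no glutamine enzyme of their own, and none of them passed (log2 fold changes -0.11, -0.12 and 0.14). EEF1E1, the third scaffold protein of the complex, did not pass either (-0.17, adjusted p = 0.0438).

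Genes listed for the sensing of uncharged tRNA and for signalling through eIF2α and ATF4 were mostly higher. Of the 10, 8 rose and 0 fell, beside 28.7% and 28.1% of all genes. Uncharged tRNA was not measured, and the cause of the rise was not tested. ASNS, the asparagine synthetase, rose from 171, 176 and 175 CPM to 374, 367 and 369 CPM (1.09 ± 0.03, adjusted p = 5.84e-10). SESN2, an inhibitor of mTORC1, had the largest change, from 13.2, 17.3 and 15.4 CPM to 48.2, 48.2 and 48.3 CPM (1.65 ± 0.08, adjusted p = 1.57e-08). DDIT3 (1.34) and TRIB3 (1.20), both known ATF4 targets, rose as well. In each of these the groups were separate. The mRNA of ATF4 itself rose by less, from 507 ± 6.32 to 589 ± 17.7 CPM (0.21 ± 0.03, adjusted p = 0.000242). GCN1 (0.37) and EIF2S1 (0.32), the GCN2 activator and eIF2α, also rose, as did PPP1R15A (0.23), which directs the removal of the phosphate from eIF2α. EIF2AK4, the sensor of uncharged tRNA, was at 109 ± 2.40 CPM in PC9 and 111 ± 0.64 CPM in PSPC9 (0.03 ± 0.04, adjusted p = 0.536), and IMPACT, an inhibitor of that kinase, did not pass either (-0.07, adjusted p = 0.292).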

How the data were processed

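The data were 6 bulk RNA-seq libraries (3 PC9, 3 PSPC9), grouped by the sample labels. The authors prepared poly-A TruSeq libraries, sequenced paired reads of 75 bases, filtered them with FASTP and pseudoaligned them with Kallisto 0.46.1 to Ensembl transcripts of GRCh38. The deposited values are Kallisto's estimated counts, whole numbers without normalization, per gene symbol and per transcript. Strandedness is not given in the sources used here. A second laboratory's libraries, which the study modelled together with these, were not analysed here.

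Gene counts were compared in R 4.3.3 with edgeR 4.0.16 (filterByExpr, TMM, glmQLFit, glmQLFTest, no block) and Benjamini-Hochberg adjustment over all 14626 genes tested, with a limit of 0.01. CPM values use TMM-scaled library sizes. The standard error is the log2 fold change divided by the square root of F. Transcripts were tested likewise, and usage with diffSpliceDGE (Simes). TPM was computed from transcript counts and GENCODE 44 lengths. The procedure was tested on simulated data. Alternatives were DESeq2 1.42.0, limma 3.58.1 (voom), other scalings, filters and limits, a replicate block and leaving out each library. Total counts were 29476725 to 34893782 per library, and the spread between libraries sets the precision.

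The members and gene lists were chosen with earlier results of these data known. Values per library are given for the 8 highest and 4 lowest cytosolic members, the 4 highest and 4 lowest mitochondrial members, members that did not pass or overlapped, both dual genes, both scaffolds and the phenylalanine subunits, with pairs by ratio, and up to 6 members with changed usage. Values of IARS1-202, TARS and LARS transcripts were chosen after they were seen. Exonic overlaps with other genes were counted in GENCODE 44, and several, not all, are given beside the member. Some items the rule selects are not reported here.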

Additional observations from a re-analysis of the deposited data

How the results depend on the processing

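The samples share only replicate numbers: deviations of same-numbered libraries correlated at 0.124, 0.0236 and 0.0215 across genes, so the numbers were not taken to pair them. With a replicate block, the cytosolic counts (17 higher, 2 lower), the mitochondrial counts (3 higher, 7 lower) and the medians (0.35 and -0.06) were as in the fit without it, accessory and sensing genes went from 10 to 12, usage stayed at 0 and called member transcripts went from 20 to 6. DESeq2, limma voom and the fit without a filter left the compartment counts within 1.5 times. The medians of cytosolic and mitochondrial members became 0.30 and -0.10 with upper-quartile scaling, 0.29 and -0.11 with library size only, and 0.39 and 0.0139 when gene counts were summed from annotated transcripts. The median of all genes moved to -0.05 and -0.06 under those scalings. At an adjusted p under 0.05, 5 mitochondrial members were higher, 16 accessory and sensing genes were called, and so were 34 member transcripts and the usage of 1 member. With a fold change above 1.5 as well, 6 cytosolic members were higher and 0 lower, 0 mitochondrial members were higher and 0 lower, and 5 accessory and sensing genes were called. Leaving out 1 library gave 7 to 12 member transcripts and 0 to 1 members with changed usage. Members near 0 changed sign: KARS (-0.017 upper-quartile, -0.028 library size), AIMP1 (-0.016 and -0.027), RARS2 (-0.022 and -0.032, and between -0.013 without PC9 replicate 2 and 0.051 without PC9 replicate 1) and RARS (-0.0040 with library size). HARS was -0.70 when summed from transcripts, where 35.4% of its counts were on annotated transcripts, and CARS (0.44, adjusted p = 0.213, with 1.08% on them) and LARS (0.15, adjusted p = 0.0125) lost their calls. WARS2 passed with upper-quartile scaling (adjusted p = 0.00544) and with library size only (adjusted p = 0.00485). Over all members and alternatives tried, 472 values kept their direction and call, 9 changed sign, 9 lost the call and 3 gained it.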
